A study of Mus musculus with 4 samples.

Results

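The extracellular matrix is the protein scaffold that lies between and beneath cells. Collagens give it tensile strength, laminins and type IV collagen form the sheet-like basement membrane under epithelia and around muscle cells, elastin fibres let it recoil, and integrins on the cell surface hold on to it. In the wall of the epididymal duct this scaffold is made largely by fibroblasts, smooth muscle and epithelium, whereas a mature spermatozoon carries little of the machinery for protein secretion. The genes described here are the collagens, laminins, integrins and other matrix genes in RNA of mouse spermatozoa. They were chosen by symbol, with a name pattern that covers collagen, laminin and integrin chains, matrix metalloproteinases except Mmp12, ADAMTS proteins, TIMP inhibitors, fibronectin, fibrillins, fibulins, elastin, lysyl oxidases, nidogens, perlecan, the proteoglycans decorin, lumican, biglycan and versican, and the matricellular proteins. The pattern matched 168 mouse gene symbols, of which 85 were among the 8699 genes in the deposited tables. Matrix genes that are not listed there could not be examined. Connective tissue growth factor and Cyr61 are listed under their current symbols Ccn2 and Ccn1. The pattern also caught 3 genes by name alone, the ceramide transporter Col4a3bp, the integrin-binding adaptor Itgb1bp1 and the integrin-like secreted protein Itgbl1, which leaves 82 matrix genes proper.

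The RNA came from adult C57BL/6J males of about 11 weeks, given either saline or nicotine, with 2 libraries in each group. Sperm had been squeezed through a nick in the cauda epididymidis, and no removal of other cells is described in the labels. The sources used here do not state nicotine dose, route or duration, nor whether libraries with the same treatment are different animals. The p-values thus reflect only how far these samples scatter, and that scatter may be technical. The comparison asks which sperm RNAs differ between nicotine and saline males.

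The libraries held 3798794 to 5216745 reads on listed genes, but Lars2 and Gm42418 took most of them, and the reads on all other genes were 1002360 and 931578 with saline and 358477 and 1176304 with nicotine, replicate 1 first. Shares below refer to these reads. Sperm marker genes, of which 25 of 30 were listed, held 2.14% and 1.87% in the saline libraries and 6.18% and 5.84% in the nicotine libraries. Markers of fibroblasts, smooth muscle and endothelium, with all matrix genes taken out of the list, had 29 of 45 listed. They held 2.56% and 1.59% with saline and 0.211% and 0.878% with nicotine. Lmod1, Cspg4, Mcam and Eng were among 317 of the 8699 listed genes at 0 reads in nicotine replicate 1. Clec3b, Tcf21 and Vwf were higher in that library than in either saline library. Among the 10 fibroblast markers listed, both nicotine libraries lay below both saline libraries in 30%, against 29.9% of all listed genes. In bulk RNA, fewer cells of a type and less RNA per cell cannot be told apart.

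What makes a collagen a collagen can be read in its exons. The triple helix needs glycine at regular steps of 3 residues, and glycine is encoded by codons that start with GG, so a helical exon repeats GG in steps of 9 bases. In the GENCODE M21 annotation of GRCm38, coding exons of 54 bases or the related sizes of 45, 99, 108 and 162 bases made up 68.2% to 82.7% of the coding exons of the 6 listed fibrillar collagens. The share was 2.5% to 24.4% in the 8 basement membrane collagens and 6.15% to 58.7% in the 12 other collagens. The longest unbroken run of such triplets was 338 to 344 in the fibrillar chains and 30 to 66 in the basement membrane chains, whose helices are interrupted. One 54-base coding exon is shown for each collagen that passed the test below and for Col1a2, the partner chain of Col1a1, 5′ to 3′ on the coding strand. Capitals mark the first codon of each triplet of residues, which is a glycine codon in every triplet shown, and a glycine codon elsewhere in a triplet stays in lower case.
Col1a1 (chr11:94939904-94939957, + strand): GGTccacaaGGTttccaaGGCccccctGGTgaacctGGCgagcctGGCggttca
Col1a2 (chr6:4515481-4515534, + strand): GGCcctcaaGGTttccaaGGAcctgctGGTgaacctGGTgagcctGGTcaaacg
Col3a1 (chr1:45325360-45325413, + strand): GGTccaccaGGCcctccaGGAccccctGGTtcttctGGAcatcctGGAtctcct
Col5a2 (chr1:45434892-45434945, - strand): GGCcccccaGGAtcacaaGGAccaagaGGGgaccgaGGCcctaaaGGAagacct
Col4a5 (chrX:141575988-141576041, + strand): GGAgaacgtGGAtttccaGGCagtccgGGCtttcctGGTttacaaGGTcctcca
Col22a1 (chr15:71952523-71952576, - strand): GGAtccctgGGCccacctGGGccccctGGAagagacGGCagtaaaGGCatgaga
Col9a3 (chr2:180601582-180601635, + strand): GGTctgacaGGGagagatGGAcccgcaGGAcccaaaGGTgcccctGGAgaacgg
Each exon holds 6 such triplets. The exons of Col1a1 and Col1a2, which assemble into the same type I collagen molecule, are identical at 42 of 54 bases. The first 4 chains belong to the fibrillar collagens, Col4a5 to the basement membrane, and Col22a1 and Col9a3 to the collagens that sit on the surface of fibrils or at tissue junctions. The longest run was 113 triplets in both Col22a1 and Col9a3.

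Matrix genes held a smaller share of reads in both nicotine libraries than in either saline library. Their share was 2.63% in saline replicate 1 (exact Clopper-Pearson 95% interval 2.60 to 2.66%) and 1.07% in saline replicate 2 (1.05 to 1.10%). For the nicotine libraries it was 0.325% (0.307 to 0.344%) in replicate 1 and 0.474% (0.461 to 0.486%) in replicate 2. The intervals cover counting error only. As shares of all reads, Lars2 and Gm42418 included, the values were 0.659% and 0.260% with saline and 0.0307% and 0.107% with nicotine, so that which group had the more unequal libraries turned with the denominator. With 2 libraries against 2, no permutation of the labels can reach p = 0.05. Matrix reads per read on fibroblast, smooth muscle and endothelial markers were 1.03 and 0.676 in the saline libraries and 1.54 and 0.539 in the nicotine libraries, so that the groups overlapped in this ratio. Smooth muscle markers held most of these marker reads in each library. Matrix reads per read on fibroblast markers alone were 11.5 and 7.63 with saline and 5.21 and 11.2 with nicotine, and the groups overlapped here too. Matrix reads per read on sperm markers were 1.23 and 0.575 with saline and 0.0527 and 0.0811 with nicotine. The part of either tissue in the matrix values was not tested.

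**Figure D1:**
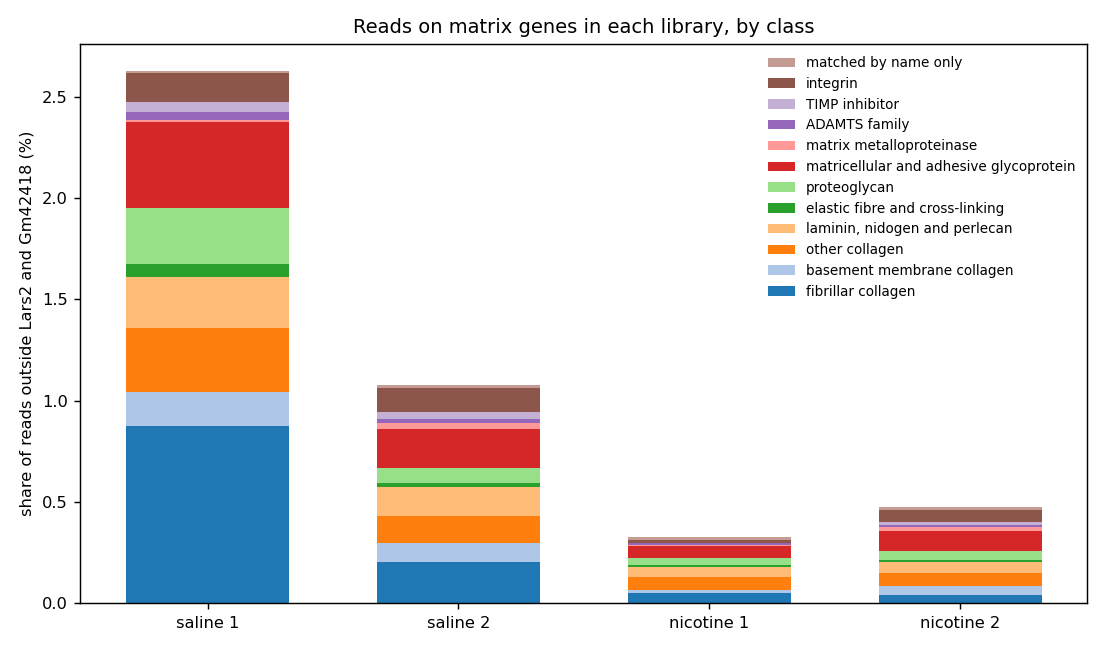
Share of reads on matrix genes in each of the 4 libraries, in percent of reads outside Lars2 and Gm42418, stacked by class. The whole bar is 2.63% in saline replicate 1, 1.07% in saline replicate 2, and 0.325% and 0.474% in the nicotine libraries, and the fibrillar collagens form the largest block in saline replicate 1.

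Most matrix genes had lower values with nicotine, and few passed the test. Of the 83 that were tested, 4 fell, which is 4.82%, against 0.931% of all 8375 tested genes called lower. A further 2 rose, which is 2.41%, against 8.27% of all tested genes called higher. At an unadjusted p under 0.05, 33 were lower, or 39.8%, against 7.12% of all tested genes, and 2 were higher, against 16.6%. The median log2 fold change, nicotine over saline, was -1.32 over the tested matrix genes and -0.14 over all tested genes. It was negative in 76 of the 83 tested matrix genes, against 4651 of all 8375 tested genes. Both nicotine libraries lay below both saline libraries in 53 of the 85 genes, or 62.4%, against 29.9% of all listed genes, and above them in 3, against 28.6% of all listed genes. The median differed between parts of the matrix. It was -2.74 for fibrillar collagens, -1.78 for the 3 tested proteoglycans, -1.52 for basement membrane collagens, -1.45 for elastic fibre and cross-linking genes, -1.32 for ADAMTS genes, -1.29 for metalloproteinases, -1.26 for other collagens, -1.20 for laminins with nidogens and perlecan, -1.20 for TIMPs, -1.07 for integrins and -0.98 for matricellular and adhesive glycoproteins. The order of classes changed with single libraries. Without nicotine replicate 2 integrins were lowest, at -2.68, and fibrillar collagens had -2.16. In nicotine replicate 1, the nicotine library then left, 7 of the 12 integrins had at most 3 reads, against 26.7% of all listed genes. Without saline replicate 1 fibrillar collagens had -1.37, integrins -0.99 and proteoglycans -0.32. The differences between classes were not tested.

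The count of calls rested on single libraries. Without saline replicate 1, 0 matrix genes were lower and 1 higher by edgeR, with 5 at an unadjusted p under 0.05, against 0.303% and 0.152% of all tested genes called lower and higher. Without saline replicate 2, 2 were lower (Col6a5 and Lum) and 0 higher by edgeR, with 37 at an unadjusted p under 0.05, against 0.104% and 0% of all. Leaving out nicotine replicate 1 gave 25 lower and 1 higher, against 3.29% and 10.8%. Leaving out nicotine replicate 2 gave 29 lower and 2 higher, against 9.67% and 17.8%. With all libraries, DESeq2 called 9 lower and 2 higher against 0.931% and 10.8% of all, and limma-voom 2 lower and 1 higher against 0.549% and 9.15%. Scaling by total reads gave 2 lower and 0 higher against 0.107% and 0%. Scaling by reads other than those on Lars2 and Gm42418 left 0 lower and 0 higher by edgeR against 0% of all. At an unadjusted p under 0.05 there were then 64 of the 83 tested matrix genes, against 2523 of all 8375 tested genes. With a library left out, the matrix median lay below that of all genes by 0.77 without saline replicate 1 and by 1.34 to 1.60 without any of the other 3, and it lay below by 1.11 with DESeq2, 1.13 with limma-voom and 1.21 with scaling by total reads.

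**Figure D2:**
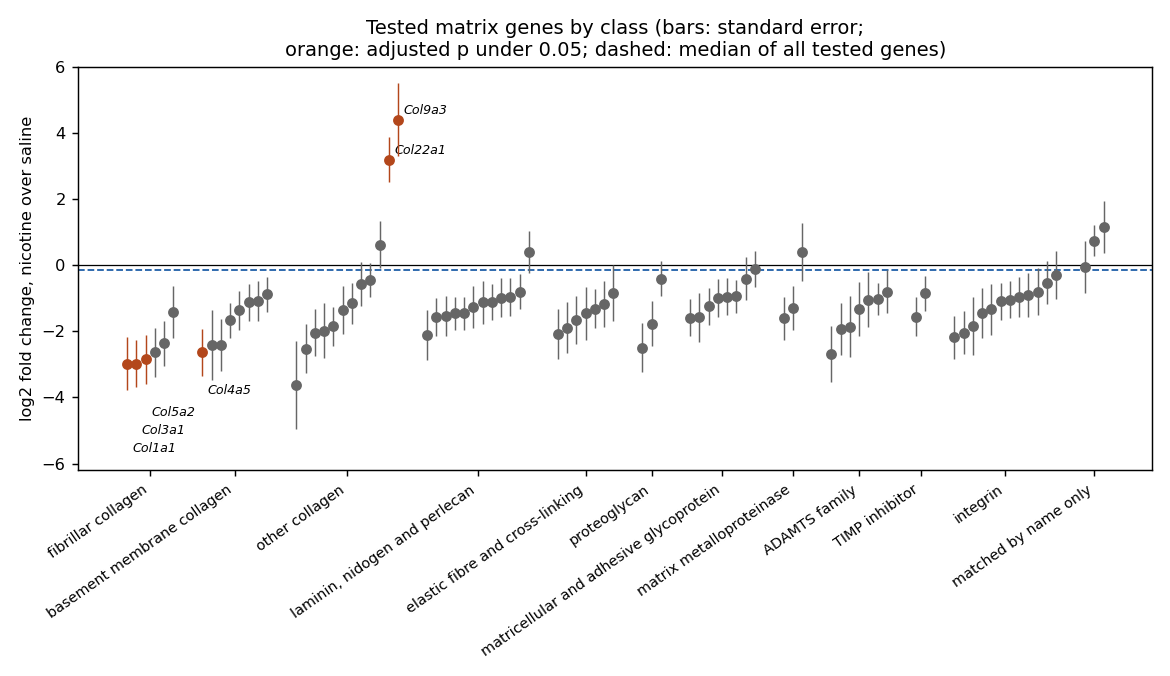
Log2 fold change (nicotine over saline) of the 83 tested matrix genes, grouped by class, with standard errors. Orange points passed at an adjusted p under 0.05 and the dashed line is the median of all tested genes at -0.14. Fibrillar collagens lie lowest as a class, and Col9a3 and Col22a1 stand alone above the rest.

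Fibrillar collagens form the rope-like fibres of connective tissue. Of the 6 listed chains 3 fell, or 50%, against 0.931% of all tested genes called lower. All 6 had both nicotine libraries below both saline libraries, against 29.9% of all listed genes. Col1a1, the main chain of type I collagen (ENSMUSG00000001506), had 2278 reads in saline replicate 1 and 506 in its replicate 2, against 53 and 71 in nicotine replicates 1 and 2. As TMM-scaled counts per 1000000 reads (CPM) this was 339.2, 79.7, 43.0 and 12.2. Saline replicate 1 stood far above the rest, and nicotine replicate 2 was lowest. Col1a1 fell by 2.98 ± 0.81 on the log2 scale (standard error, adjusted p = 0.0461 by edgeR's quasi-likelihood test, 2 libraries per group).

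Col3a1, the chain of the finer type III fibres that accompany type I in soft tissue and vessel walls, had 537.6 and 117.5 CPM with saline and 44.6 and 38.8 with nicotine. It fell by 2.98 ± 0.72 (adjusted p = 0.0348, edgeR). Col5a2, a chain of type V collagen, which starts fibrils and sets their width, had 187 and 47 reads with saline and 2 and 16 with nicotine, or 27.8, 7.40, 1.62 and 2.76 CPM. It fell by 2.85 ± 0.74 (adjusted p = 0.0400, edgeR). In nicotine replicate 1 its 2 reads lie under the 3 counts that a count of 0 allows. Across these chains saline replicate 1 was highest, by a wide margin over saline replicate 2.

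The remaining fibrillar chains did not pass. Col1a2, the partner of Col1a1, had 357.8 and 76.1 CPM in saline and 46.3 and 24.8 in nicotine, with a log2 fold change of -2.63 ± 0.74 (adjusted p = 0.0509, edgeR, and 0.00761 by DESeq2). Col5a1 had -2.36 ± 0.68 (adjusted p = 0.0558), with 35.6, 10.4, 5.68 and 3.79 CPM. Col11a1, best known from cartilage, had 32 and 22 reads with saline and 4 and 5 with nicotine, and its -1.42 ± 0.79 was the smallest change of the class (adjusted p = 0.309). Without saline replicate 1, Col1a1, Col3a1 and Col5a2 had -1.60, -1.52 and -1.66 (adjusted p = 0.499, 0.553 and 0.587). Without saline replicate 2 they had -3.69, -3.72 and -3.55 and did not pass either (adjusted p = 0.129, 0.165 and 0.100). With median-of-ratios factors in place of TMM, Col1a1 did not pass (-2.85, adjusted p = 0.0564), and 3 matrix genes were then lower. By limma-voom Col5a2 did not pass (-2.41, adjusted p = 0.113). All 3 chains passed with either nicotine library left out, with Col1a1 at -4.06 without nicotine replicate 1 and -2.19 without nicotine replicate 2.

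**Figure D3:**
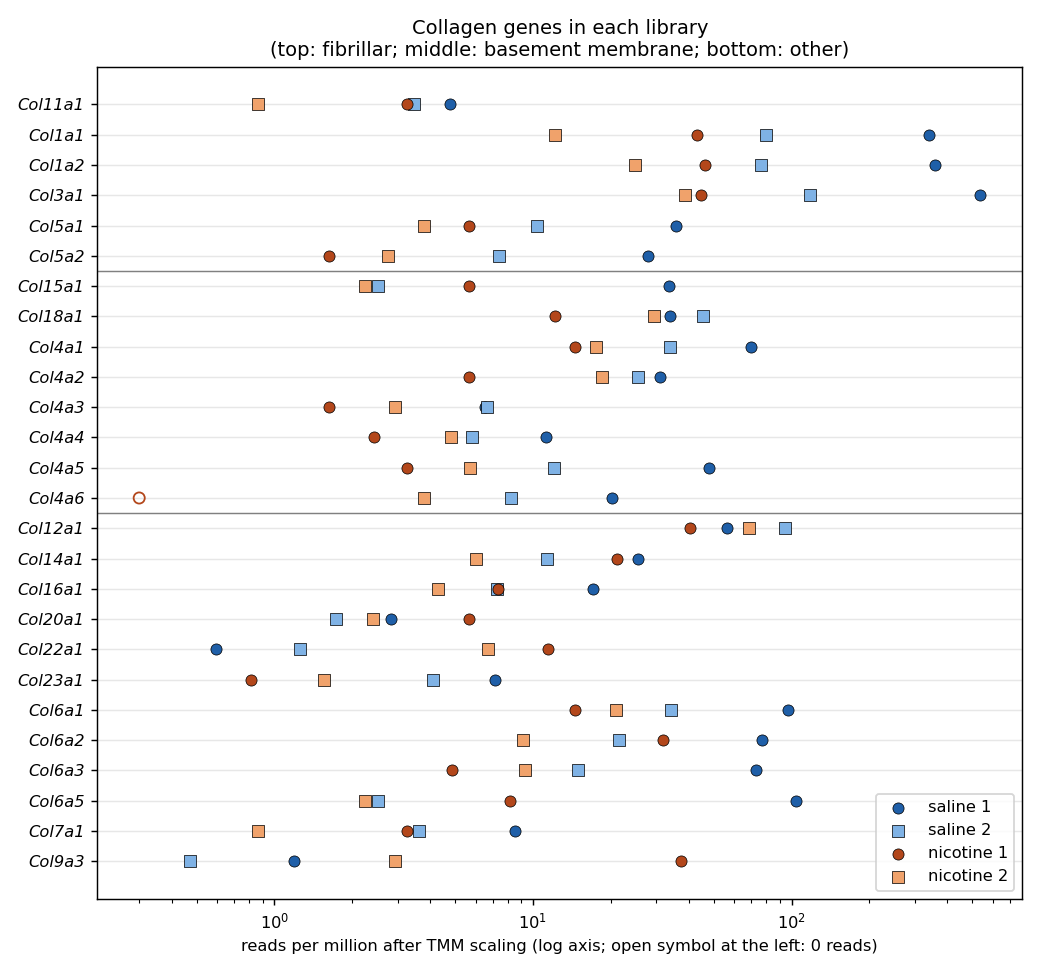
Level of the 26 collagen genes in each library, in TMM-scaled CPM on a log axis. Blue symbols are saline and orange symbols nicotine, circles are replicate 1 and squares replicate 2. Saline replicate 1 is far to the right for Col1a1, Col1a2, Col3a1, Col6a3, Col6a5 and Col15a1, while Col9a3 and Col22a1 have both nicotine libraries on the right.

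Type IV collagen forms the mesh of basement membranes from head-to-head gene pairs on chromosomes 8, 1 and X. Of the 8 basement membrane collagens 1 fell, or 12.5%, against 0.931% of all tested genes, and all had negative log2 fold changes. In 7 both nicotine libraries lay below both saline libraries, against 29.9% of all listed genes. Col4a5, an X-linked chain found in the basement membranes of smooth muscle and of the kidney filter, had 323 and 77 reads with saline and 4 and 33 with nicotine, or 48.1, 12.1, 3.25 and 5.69 CPM. It fell by 2.64 ± 0.71 (adjusted p = 0.0450, edgeR), but did not pass by limma-voom (-2.18, adjusted p = 0.105). Its neighbour and partner Col4a6 had 136 and 52 reads with saline and 0 and 22 with nicotine, with -2.42 ± 0.79 (adjusted p = 0.0856). Without saline replicate 1, Col4a5 had -1.37 (adjusted p = 0.626), and without saline replicate 2 it had -3.36 (adjusted p = 0.129).

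Col4a1 and Col4a2, the chains of the common basement membrane mesh, had smaller log2 fold changes than Col4a5 and Col4a6. Neither they nor Col18a1 and Col15a1 passed. Col4a1 had 69.7 and 34.0 CPM in saline and 14.6 and 17.6 in nicotine, a log2 fold change of -1.67 ± 0.53 (adjusted p = 0.0761, edgeR). Col4a2 had 31.1 and 25.5 CPM in saline and 5.68 and 18.5 in nicotine, with -1.13 ± 0.56 (adjusted p = 0.258). Col18a1, whose tail releases the fragment endostatin, was higher in saline replicate 2 than in saline replicate 1, with 33.8 and 45.5 CPM in saline and 12.2 and 29.3 in nicotine (-0.88 ± 0.53, adjusted p = 0.348). Col15a1, its relative around vessels and muscle, had 226 reads in saline replicate 1 and 16, 7 and 13 in the other libraries in the order saline replicate 2, nicotine replicates 1 and 2. Its log2 fold change was -2.42 ± 1.05 (adjusted p = 0.189, edgeR). The groups overlapped for Col15a1, since nicotine replicate 1 at 5.68 CPM exceeded saline replicate 2 at 2.52 CPM.

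Among the other 12 collagens 2 rose, or 16.7%, against 8.27% of all tested genes, and 0 fell, against 0.931%. Col22a1, a collagen of tissue junctions such as the muscle-tendon border, had 4 and 8 reads with saline and 14 and 39 with nicotine, or 0.596, 1.26, 11.4 and 6.73 CPM. The rise was 3.19 ± 0.69 on the log2 scale (adjusted p = 0.0329, edgeR, and 0.0383 by limma-voom). The nicotine libraries lay close together and well above both saline libraries. Col9a3, a cartilage chain that decorates fibrils, had 1.19 and 0.473 CPM with saline, against 37.3 and 2.93 with nicotine, a rise of 4.40 ± 1.10 (adjusted p = 0.0373, edgeR). By limma-voom it did not pass (3.0 on the log2 scale, adjusted p = 0.272). Nicotine replicate 1 carried most of that difference, and without it the log2 fold change was 1.81 (adjusted p = 0.194). Col22a1 kept 2.85 (adjusted p = 0.0130) without nicotine replicate 1 and 3.65 without nicotine replicate 2, but it did not pass without saline replicate 1 (2.74, adjusted p = 0.292) or without saline replicate 2 (3.79, adjusted p = 0.313). Col9a3 had 5.21 (adjusted p = 0.0256) without saline replicate 1 and 3.92 (adjusted p = 0.197) without saline replicate 2. Sperm markers moved in the same direction as these chains, with 17 of 24 tested members higher, or 70.8%, against 8.27% of all tested genes. Their part in the rise of Col22a1 and Col9a3 was not tested.

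Type VI collagen, a beaded filament around cells, is built from Col6a1, Col6a2 and a longer partner chain. Col6a1 had 96.6 and 34.3 CPM in saline and 14.6 and 21 in nicotine (-1.85 ± 0.59, adjusted p = 0.0771, edgeR), and Col6a3 had 72.7, 15, 4.87 and 9.31 (-2.53 ± 0.74, adjusted p = 0.0590). Col6a2 overlapped between groups, with 76.8 and 21.6 CPM in saline and 31.7 and 9.14 in nicotine. Col6a5, an alternative long chain, had the largest negative log2 fold change of all tested matrix genes, -3.62 ± 1.33, yet an adjusted p of 0.123. Its reads were 701 in saline replicate 1, 16 in saline replicate 2 and 10 and 13 in the nicotine libraries. Without saline replicate 1 its log2 fold change was 0.84 (adjusted p = 0.881), so that its direction turned on that library. Col12a1, a collagen on fibril surfaces, was the most even of the abundant chains, with 56.4, 94.0, 40.6 and 68.5 CPM (-0.45 ± 0.51, adjusted p = 0.638).

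Laminins are cross-shaped trimers that organise the basement membrane, nidogens link them to type IV collagen, and perlecan (Hspg2) is a large heparan sulfate proteoglycan in the same sheet. None of these 12 genes passed the test by edgeR, and 11 had negative log2 fold changes. At an unadjusted p under 0.05, 5 were lower, or 41.7%, against 7.12% of all tested genes. Lama2, the alpha chain of muscle basement membranes, had 263 and 47 reads with saline and 8 and 27 with nicotine, or 39.2, 7.40, 6.49 and 4.66 CPM (-2.12 ± 0.76, adjusted p = 0.112). Hspg2 had 93.6 and 60.8 CPM in saline and 30.8 and 25.7 in nicotine, with the groups apart (-1.46 ± 0.49, adjusted p = 0.0910). Lamb2 had 36.6, 25.2, 10.6 and 11.7 CPM (-1.46 ± 0.49, adjusted p = 0.0919). Nid1 had 50.3, 18.1, 20.3 and 15 CPM and overlapped between groups. Lama3, the alpha chain of laminin under epithelia, was the exception in sign, with 17 and 22 reads with saline and 6 and 20 with nicotine (0.40 ± 0.63, adjusted p = 0.755).

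Elastic fibres consist of an elastin core on a fibrillin scaffold, and lysyl oxidases cross-link elastin and collagen. All 7 genes of this class had negative log2 fold changes and none passed by edgeR. The 4 that were lower at an unadjusted p under 0.05 make 57.1%, against 7.12% of all tested genes. Eln had 190 and 41 reads with saline and 7 and 19 with nicotine, or 28.3, 6.46, 5.68 and 3.28 CPM (-2.08 ± 0.75, adjusted p = 0.114). Fbn1 had 29.2 and 10.9 CPM in saline and 9.74 and 6.90 in nicotine (-1.32 ± 0.59, adjusted p = 0.208). Fbln1 had 14.6 CPM in saline replicate 1 and 2.76 to 4.06 in the other libraries.

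Among the proteoglycans, which coat and space collagen fibrils or swell the matrix, decorin (Dcn) had the highest mean level per deposited gene length over the 4 libraries, at 61.4 CPM per kilobase. That mean was carried by saline replicate 1 at 156.2, and in nicotine replicate 2 Mmp7 was higher, at 36.3 against 26.2 for Dcn. It had 2187 and 449 reads with saline and 75 and 316 with nicotine, or 325.6, 70.7, 60.9 and 54.5 CPM (-1.78 ± 0.68, adjusted p = 0.136, edgeR). Saline replicate 1 was again highest, and the other libraries lay near each other. Biglycan (Bgn), its X-linked relative, had 65.1, 30.1, 40.6 and 31.7 CPM and showed the smallest change of the class (-0.41 ± 0.52, adjusted p = 0.686). Versican (Vcan) had 61 and 29 reads with saline and 2 and 6 with nicotine (-2.50 ± 0.74, adjusted p = 0.0593). Lumican (Lum) had 97 reads in saline replicate 1, 0 in saline replicate 2, 0 in nicotine replicate 1 and 1 in nicotine replicate 2, and was not tested. Its ratio of saline to nicotine was 52.2 with a 95% counting interval of 9.15 to 2082.8, which rests wholly on saline replicate 1.

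Matricellular and adhesive glycoproteins link cells to fibres or tune that contact. None of the 8 passed by edgeR, and all 8 had negative log2 fold changes. Only 1 was lower at an unadjusted p under 0.05, or 12.5%, against 7.12% of all tested genes. Fibronectin (Fn1), the adhesive protein to which many integrins bind, had 163.3 and 74.5 CPM in saline and 28.4 and 49.3 in nicotine (-1.59 ± 0.56, adjusted p = 0.106). Sparc, a collagen-binding protein secreted by fibroblasts, had 291.8 CPM in saline replicate 1, 55.8 in saline replicate 2, 82.8 in nicotine replicate 1 and 35.4 in nicotine replicate 2, so that the groups overlapped (-1.58 ± 0.75, adjusted p = 0.235). Without saline replicate 1 Sparc had 0.04. Its relative Sparcl1 had 107.3 and 78.5 CPM in saline and 25.2 and 69.3 in nicotine (-0.95 ± 0.56, adjusted p = 0.336), and was the matrix gene with the most reads in nicotine replicate 2, at 402. Tenascin C (Tnc), a glycoprotein of remodelling tissue, had 8.34, 12.3, 4.87 and 12.6 CPM with a log2 fold change near 0 (-0.12 ± 0.55, adjusted p = 0.921).

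Of the enzymes that cut the matrix and their inhibitors, none of the 12 tested passed by edgeR. Among them 4 were lower at an unadjusted p under 0.05, against 7.12% of all tested genes. The gelatinase Mmp2 had 71 and 38 reads with saline and 5 and 12 with nicotine (-1.61 ± 0.65, adjusted p = 0.161), and the membrane-bound Mmp14 had 27, 39, 3 and 11 (-1.29 ± 0.66, adjusted p = 0.266). Mmp7, matrilysin, a protease of glandular epithelia, followed another order, with 24 reads in saline replicate 1 and 225 in saline replicate 2, and 13 and 225 in nicotine replicates 1 and 2. That is 3.57, 35.4, 10.6 and 38.8 CPM, high in replicate 2 of both groups. Epididymal epithelium markers, 23 of 36 listed, held 1.16% and 3.23% of reads with saline and 0.755% and 2.69% with nicotine. They were thus also highest in replicate 2 of each group. Spint1 was at 0 reads in nicotine replicate 1, where Cst8, Gpx5 and Prom1 were higher than in either saline library. The part of these markers in the Mmp7 values was not tested.

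All 7 ADAMTS genes, secreted proteases that process procollagens and proteoglycans and their enzyme-dead relatives, had negative log2 fold changes. Adamtsl4, a relative that binds fibrillin, had 34 and 17 reads with saline and 1 and 3 with nicotine (-2.68 ± 0.84, adjusted p = 0.0755, edgeR). Adamts10 had 42, 18, 4 and 3 reads (-1.86 ± 0.92, adjusted p = 0.254). Adamts1 had 63 and 25 reads with saline and 6 and 19 with nicotine (-0.80 ± 0.65, adjusted p = 0.499), and Adamtsl1 had 117, 98, 11 and 44 (-1.02 ± 0.48, adjusted p = 0.231). Among the TIMPs, which block metalloproteinases, Timp2 had 44.8 and 23.5 CPM in saline and 5.68 and 15.9 in nicotine (-1.56 ± 0.59, adjusted p = 0.130). Timp3 had 21.6, 16.4, 5.68 and 14.0 CPM (-0.85 ± 0.53, adjusted p = 0.369). Timp4 was untested, with 9 reads in saline replicate 1, 46 in saline replicate 2, 0 in nicotine replicate 1 and 8 in nicotine replicate 2.

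Integrins are alpha-beta pairs that join matrix to the cytoskeleton. All 12 chains had negative log2 fold changes and none passed by edgeR. Just 2 were lower at an unadjusted p under 0.05, or 16.7%, against 7.12% of all tested genes. In 9 of the 12 both nicotine libraries lay below both saline libraries, against 29.9% of all listed genes. Itgb1, the beta chain shared by most matrix receptors, had 524 and 412 reads with saline and 17 and 330 with nicotine, or 78.0, 64.9, 13.8 and 56.9 CPM (-0.97 ± 0.61, adjusted p = 0.376). Itga1, its collagen-binding partner on smooth muscle, had 52.7 and 27.6 CPM in saline and 2.43 and 24.3 in nicotine (-1.44 ± 0.75, adjusted p = 0.273). In both genes nicotine replicate 2 lay near saline replicate 2, and nicotine replicate 1 stood far below. Of the 12 integrins, 7 had at most 3 reads in nicotine replicate 1, or 58.3%, against 26.7% of all listed genes, and Itga1 had 3. Many integrin values in that library are thus near the floor. Integrins were the class with the lowest median in nicotine replicate 1 relative to nicotine replicate 2, at -1.80 on the log2 scale. Smooth muscle markers (15 of 16 listed) had -2.08 in that comparison and held 0.141% against 0.831% of reads. With saline these markers held 2.31% and 1.44%, and Lmod1, Cspg4 and Mcam were at 0 in nicotine replicate 1. Their part in the integrin values was not tested.

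The other integrin chains held fewer reads. Itgb5, which pairs with Itgav, had 49 and 47 reads with saline and 1 and 11 with nicotine, or 7.30, 7.40, 0.812 and 1.90 CPM. The saline libraries were almost equal, and its -2.18 ± 0.65 did not pass (adjusted p = 0.0605, edgeR). Itgb2, the beta chain of leukocyte integrins, had 44 and 86 reads with saline and 4 and 12 with nicotine (-2.04 ± 0.65, adjusted p = 0.0794). It was higher in saline replicate 2, as were leukocyte markers (19 of 28 listed), which held 0.162% and 0.242% of reads with saline and 0.0438% and 0.0559% with nicotine. Cd14, Cd68, Cd53 and Ctss were at 0 in nicotine replicate 1, where Adgre1 and H2-Aa were higher than in either saline library. Of the 19 leukocyte markers, 17 were lower in nicotine replicate 1 than in saline replicate 1. The part of leukocytes in the Itgb2 values was not tested. Itga6 and Itga8 had 0 reads in nicotine replicate 1.

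Saline replicate 1 had by far the highest level of many matrix genes. In 10 of the 85 genes, Col1a1, Col1a2, Col3a1, Col6a3, Col6a5, Col15a1, Lama2, Eln, Dcn and Lum, it lay more than 4-fold above every other library, against 40 of all 8699 listed genes, or 0.46%. The corresponding counts were 1 for saline replicate 2 (Timp4, against 0.299% of all), 1 for nicotine replicate 1 (Col9a3, against 1.69%) and 0 for nicotine replicate 2 (against 0.0575%). Of the 85 genes 67 were higher in saline replicate 1 than in saline replicate 2, or 78.8%, against 54.4% of all listed genes. The median log2 ratio between the saline libraries, after adding 0.5 CPM, was 1.96 for fibrillar collagens, 1.65 for proteoglycans, 1.38 for elastic fibre genes, 1.13 for ADAMTS genes, 0.95 for basement membrane collagens, 0.67 for laminins, 0.28 for matricellular glycoproteins, 0.26 for integrins and -0.56 for metalloproteinases. Over all genes it was 0.06. Fibroblast markers (10 of 13 listed, none at 0 in any library) had 1.23 and smooth muscle markers 0.76 between the same libraries. Between saline replicate 2 and nicotine replicate 2 alone, 72 of 85 matrix genes were lower with nicotine, against 49.9% of all listed genes, with a median log2 ratio of -0.65 against 0.00. That comparison was added after seeing the data and has no test.

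**Figure D4:**
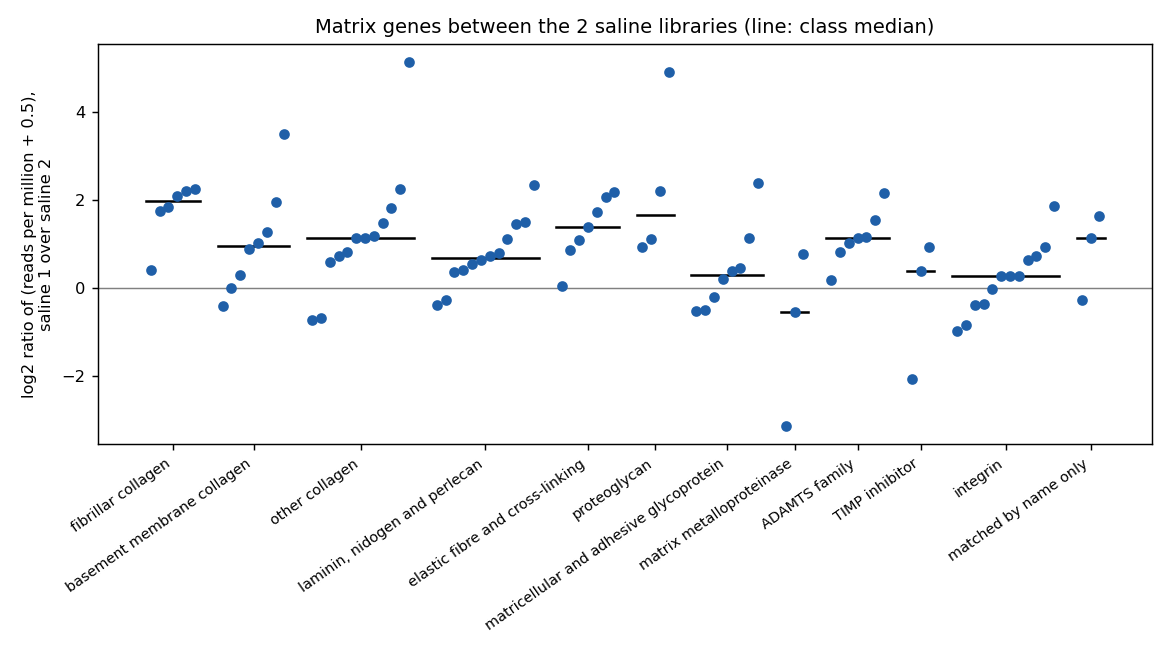
Log2 ratio between saline replicates 1 and 2 for each of the 85 genes, by class, from TMM-scaled CPM plus 0.5. Horizontal lines are class medians. Fibrillar collagens sit near 2 and integrins near 0, and Col6a5 is the highest point.

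Ratios between genes of a library need no scaling, and they give the balance of partner chains. Type I collagen usually contains a pair of Col1a1 chains for each Col1a2 chain. Per deposited gene length, the Col1a1 to Col1a2 ratio was 1.79 (95% counting interval 1.69 to 1.90) and 1.98 (1.75 to 2.25) in the saline libraries. It was 1.76 (1.19 to 2.61) in nicotine replicate 1, against 0.934 (0.692 to 1.25) in its replicate 2. The interval of nicotine replicate 2 did not overlap those of the saline libraries, but it did overlap that of nicotine replicate 1. The size of the ratio depends on the length used, since the deposited length of Col1a2 is 12426 bases and its main coding transcript in GENCODE M21 is 5348 bases. With transcript lengths the ratios were 0.855, 0.945, 0.839 and 0.445 in the same order, with nicotine replicate 2 still lowest.

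Other pairs differed between libraries too. Dcn over Col1a1, per gene length, was 3.02 and 2.79 in saline, 4.46 in nicotine replicate 1 and 14.0 (10.8 to 18.4) in nicotine replicate 2, the library with the lowest Col1a1. Col3a1 over Col1a1 was 1.06 and 0.986 in saline, 0.694 in nicotine replicate 1 and 2.12 in nicotine replicate 2. Col4a1 over Col4a2 was 1.99 (1.69 to 2.35) and 1.19 (0.962 to 1.46) in the saline libraries, against 2.29 (0.911 to 6.47) and 0.847 (0.640 to 1.12) in the nicotine libraries. The replicate 1 libraries were the higher ones here, and the groups overlapped. Lamb2 over Lamc1, beta and gamma chains of the same laminin trimers, was 1.10, 1.32, 0.520 and 1.47, with an interval of 0.252 to 1.01 in nicotine replicate 1. Lamb1 over Lamc1 lay between 0.123 and 0.199 in all 4 libraries. Col6a5 over Col6a3 was 1.82 in saline replicate 1 and 0.214 in saline replicate 2.

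**Figure D5:**
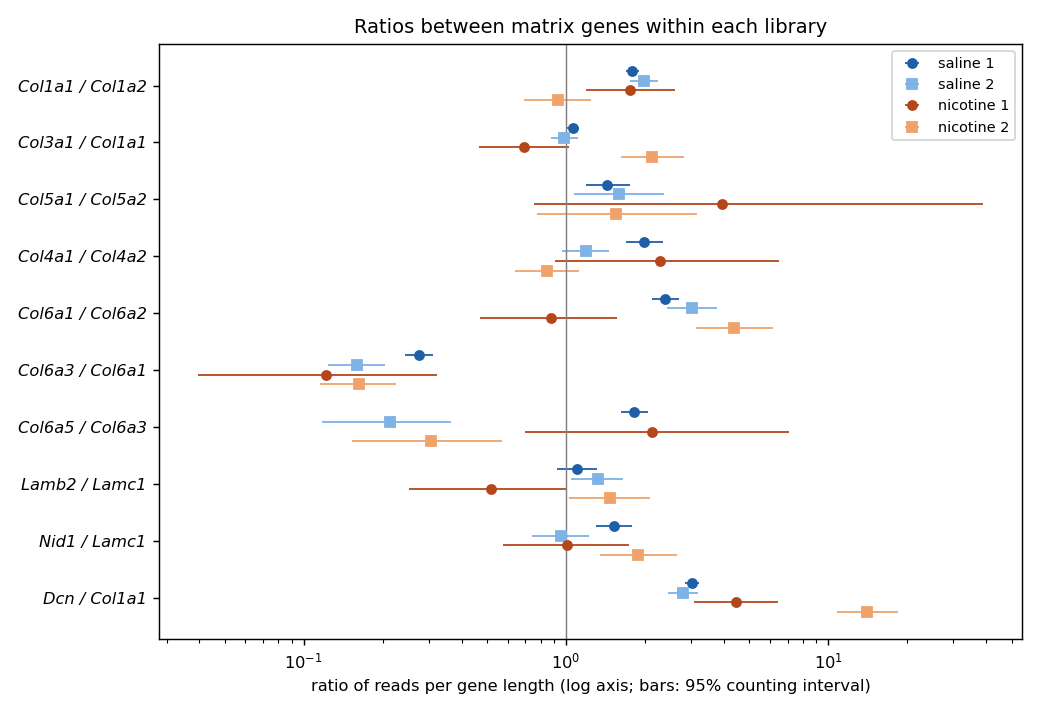
Ratios between matrix genes within each library, from reads per deposited gene length on a log axis, with 95% counting intervals. Blue is saline and orange nicotine, circles replicate 1 and squares replicate 2. Nicotine replicate 2 lies apart for Col1a1 over Col1a2 at 0.934 and for Dcn over Col1a1 at 14.0.

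Genes that build, bind or regulate the matrix but lie outside the name pattern were listed beside it. Of all tested genes 0.931% were called lower and 8.27% higher, and 7.12% were lower at an unadjusted p under 0.05. Of 54 genes for collagen processing and matrix assembly, 28 were listed and 27 tested, and 0 passed by edgeR (10 at an unadjusted p under 0.05), with a median log2 fold change of -1.23. The collagen chaperone Serpinh1 had 166 and 63 reads with saline and 14 and 29 with nicotine (-1.21 ± 0.63, adjusted p = 0.273), and was named after its values were seen. Of 40 matrix receptors and adhesion complex genes 32 were tested, 2 fell, which is 6.25%, and 0 rose, with a median of -0.97. Cd44, the hyaluronan receptor, had 37 and 72 reads with saline and 0 and 6 with nicotine and fell by 3.37 ± 0.83 (adjusted p = 0.0353). Ddr1, a collagen-sensing receptor kinase of epithelia, had 46 reads in each saline library and 1 and 8 in nicotine and fell by 2.49 ± 0.66 (adjusted p = 0.0437). Both passed without either nicotine library, although for Cd44 no fold can be given without nicotine replicate 2, since the library left is at 0 reads. Neither passed without saline replicate 1 (Cd44 -3.87, adjusted p = 0.0928, Ddr1 -2.58, adjusted p = 0.315) or without saline replicate 2 (Cd44 -2.84, adjusted p = 0.363, Ddr1 -2.50, adjusted p = 0.396).

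Of 22 other matrix proteases and inhibitors 15 were tested and 2 fell, which is 13.3%, against 0.931% of all tested genes. All 15 had negative log2 fold changes, with a median of -1.37. Ctsk, a collagen-degrading cathepsin, had 55 and 57 reads in saline and 3 in each nicotine library and fell by 3.08 ± 0.79 (adjusted p = 0.0383, edgeR). Ctsb, a general lysosomal cathepsin, had 439 and 1267 reads with saline and 27 and 188 with nicotine and fell by 2.27 ± 0.62 (adjusted p = 0.0461). Neither passed without saline replicate 1 (Ctsk -3.04, adjusted p = 0.256, Ctsb -2.88, adjusted p = 0.159) or without saline replicate 2 (Ctsk -2.91, adjusted p = 0.359, Ctsb -1.27, adjusted p = 0.642). Ctsk also did not pass without nicotine replicate 2 (-1.74, adjusted p = 0.0983). The log2 ratio of saline replicate 1 to saline replicate 2 was -0.98 for Cd44, -0.08 for Ddr1, -0.13 for Ctsk and -1.60 for Ctsb, where Col1a1 had 2.08. Of 18 genes of the TGF-beta pathway, which drives matrix production, 15 were tested and 0 passed by edgeR, with a median of -0.66. At an unadjusted p under 0.05, 1 was lower, or 6.67%, near the 7.12% of all tested genes.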

How the data were processed

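RNA-seq tables of 4 libraries were used, 2 from saline and 2 from nicotine mice. Reads per gene were deposited by the authors without normalisation and are called an estimated count per gene in what follows. All gene lines hold whole numbers, so rounding changed nothing. The last line, which names no gene, was left out. It holds a scaling factor inverse to the total reads of the library and not a count. The authors' RPKM values equalled reads over length and library total and were not used further. CASAVA, TopHat and mm8 are named in the submitters' processing notes. The sources used here do not name the counter, annotation, strand setting or handling of shared reads, so overlapping genes are uncertain. Symbols were found for 8688 identifiers and not for 11. Exon data come from GENCODE M21 (GRCm38), a later build than mm8.

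The main test was edgeR 4.0.16 (R 4.3.3), quasi-likelihood, TMM, group only, filterByExpr with a minimum count of 10, Benjamini-Hochberg over 8375 genes, threshold 0.05, on 83 of 85 matrix genes. TMM factors were 1.6811, 1.6475, 0.3245 and 1.1126 for saline replicates 1 and 2 and nicotine replicates 1 and 2, and 3 counts, the most that a count of 0 allows, equal 0.447, 0.473, 2.43 and 0.517 CPM. Standard errors are the log2 fold change over the root of its F statistic. DESeq2 1.42.0, limma 3.58.1 (voom), other scalings, no filter, a replicate block and left-out libraries were alternatives. Some of the fits were also run on simulated data. Their dispersion was set and not estimated from these libraries, so they do not show how the tests behave at the spread seen here. Members and gene lists were chosen with earlier results of these data known. Named genes are those called, the 3 of highest level per length in each class, the largest change of each sign per class, and called genes of the pathway lists. Col4a3bp was moved to the genes matched by name only after the tables were read. Others named are examples chosen after their values were seen.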

Additional observations from a re-analysis of the deposited data

How the results depend on the processing

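Called matrix genes numbered 4 lower and 2 higher in the main test. DESeq2 gave 9 lower, limma-voom 2 lower and 1 higher (46 lower among all genes), and scaling by total reads 2 lower and 0 higher (9 and 0 among all genes, 888 at an unadjusted p under 0.05). Scaling by the reads left after removing Lars2 and Gm42418 gave 0 and 0 by edgeR, also among all genes (2523 at an unadjusted p under 0.05, 64 of them matrix genes). The matrix median was -2.49 and -1.92 under these 2 scalings, which moved the median of all genes to -1.28 and -0.77, so relative to all genes it stayed at -1.21 and -1.14. With one library left out, lower matrix genes numbered 0 to 29 and higher ones 0 to 2, lower genes of all 9 to 824 and higher ones 0 to 1515. The remaining arm of 1 library is then assumed to vary like the other. The matrix median was -0.65 with saline replicate 2 and nicotine replicate 2 only. The labels share replicate numbers but no litter, batch or day. The correlation of same-numbered deviations was 0.18 over 2 pairs, and the replicate block gave 21 matrix genes lower and 2 higher (279 and 1078 of all 8375 tested). The matrix share, in the order saline replicates 1 and 2 and nicotine replicates 1 and 2, was 0.659, 0.260, 0.0307 and 0.107% of all reads, and 1.80, 0.889, 0.279 and 0.436% without Col1a1, Col1a2 and Col3a1. The mean Col1a1 to Col1a2 ratio was 1.62 per deposited length, 0.855 by reads and 0.771 per transcript length, the last added after seeing the data, and that of Lamb1 to Lamc1 0.156 per deposited length and 0.257 per transcript length. Among named genes the sign turned without saline replicate 1 for Col6a5 (0.84), Fbln1 (0.17), Bgn (0.23), Sparc (0.04), Mmp7 (-0.50) and Itgb1bp1 (1.16). With one library left out they ranged from -4.54, -2.19, -0.88, -2.35, -0.84 and -0.84 to 0.84, 0.17, 0.23, 0.04, 2.81 and 1.16. Itgb1bp1 also turned by limma-voom (0.40), with the block (0.26) and without nicotine replicate 1 (0.25), and Mmp7 without nicotine replicate 2 (-0.84). With scaling by total reads Lama3, Mmp7, Col4a3bp and Itgbl1 had -0.86, -0.46, -0.59 and -0.31, and with scaling by reads outside the pair Lama3 and Mmp7 had -0.26 and -0.18. None of these passed in the main test. The cause was not tested. Depth limits nicotine replicate 1, where 25 of 85 matrix genes had at most 3 reads (29.4%, against 26.7% of all genes). Among integrins it was 7 of 12, or 58.3%.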

Other observations

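The 3 genes matched by name only had a median log2 fold change of 0.74, and -0.59 with scaling by total reads. Col4a3bp, which carries ceramide between membranes, had 88 and 101 reads with saline and 36 and 117 with nicotine, or 13.1, 15.9, 29.2 and 20.2 CPM, with both nicotine libraries above both saline libraries (0.74 ± 0.48, adjusted p = 0.380 by edgeR). Itgbl1 had 20, 7, 10 and 15 reads (1.15 ± 0.79, adjusted p = 0.418), and Itgb1bp1 had 33, 8, 2 and 21 (-0.06 ± 0.78, adjusted p = 0.973), in the order saline replicates 1 and 2 and nicotine replicates 1 and 2.

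The deposited gene lengths and the main coding transcripts of GENCODE M21 differ by unequal amounts and in both directions. Itga1 has a deposited length of 5984 bases against 10967, shorter than the transcript, while others are longer. Col6a2 has 8326 against 3949 bases, Col3a1 9816 against 5564 and Col1a1 6563 against 5930. Comparisons of level between genes therefore shift with the length chosen, while comparisons of a gene between libraries do not. With transcript lengths the ratio of Col6a1 to Col6a2 was 1.21 and 1.53 with saline, against 0.445 and 2.22 with nicotine (replicate 1 first).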
